A study of Mus musculus with 16 samples.

Results

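The transcripts of 10 genes that control the G1 phase of the cell cycle were followed in early thymocytes with and without PKBalpha (Akt1), the kinase that PI3K activates at the plasma membrane. The genes encode the D-type cyclins (Ccnd1, Ccnd2, Ccnd3) with their kinases (Cdk4, Cdk6), the E-type cyclins (Ccne1, Ccne2) with their kinase (Cdk2), and a pair of inhibitors of the INK4 class (Cdkn2c, Cdkn2d). Members were all probe sets that the platform annotation assigns to 1 of these symbols alone, which gave 26 of the 45101 probe sets on the array. Ccnd2 had 7 of them, Ccnd1, Ccnd3, Cdk4 and Cdk6 had 3 each, Ccne1 and Cdk2 had 2 each, and Ccne2, Cdkn2c and Cdkn2d had 1 each.

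DN3 and ISP8 thymocytes were sorted from 4 littermate pairs of a C57Bl/6 backcross, each with 1 PKBalpha-/- and 1 PKBalpha+/+ mouse, so that every mouse gave 1 array per subset and 16 arrays were hybridised. The groups were ISP8 PKBalpha-/-, ISP8 PKBalpha+/+, DN3 PKBalpha-/- and DN3 PKBalpha+/+, with 4 arrays each. The pairs were a female pair of 3 weeks, a male pair of 3 weeks, a male pair of 2 weeks and a female pair of 5 weeks, and values are given in this order. PKBalpha was absent from the whole mouse, and 7000 to 25000 cells were sorted per sample, in equal numbers within a pair.

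DN3 cells are CD4- and CD8-negative thymocytes that carry CD25 and lack CD44, and it is there that a rearranged T cell receptor beta chain is tested through the pre-TCR. Cells that pass this test, called beta-selection, divide several times while they become ISP8 cells, the immature CD8+ cells without CD3 that precede the CD4+CD8+ stage. D-type cyclins with CDK4 or CDK6 begin the phosphorylation of the retinoblastoma protein, cyclin E with CDK2 extends it, E2F factors are set free and S phase genes are transcribed, while INK4 proteins bind CDK4 and CDK6 and keep them from D-type cyclins. In mice, cyclin D3 is needed for the expansion of thymocytes after beta-selection, and PKB can act on this module through GSK3, which marks cyclin D1 for degradation, and through FOXO factors, which repress D-type cyclin transcription.

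Akt1, the deleted gene, separated the genotypes on every array: it lay between 4.87 and 6.81 in ISP8 PKBalpha-/- cells and between 1628 and 2211 in ISP8 PKBalpha+/+ cells, and between 2.01 and 27.3 in DN3 PKBalpha-/- cells against 1198 to 2007 in DN3 PKBalpha+/+ cells. Of 8 marker genes of the DN3 stage 6 were lower in ISP8 cells of both genotypes. Of 7 marker genes of later stages, Cd8a, Cd8b1 and Cd2 were higher in ISP8 cells of both genotypes and Cd4 passed in PKBalpha-/- mice (2.66, and 2.06 in PKBalpha+/+ mice, which did not pass), while Rag2 was lower (-0.34 and -0.64 on the log2 scale in PKBalpha-/- and PKBalpha+/+ mice). The median value of an array was 55.1 to 60.4 in ISP8 cells and 58.5 to 70.5 in DN3 cells. The 3′ minus 5′ difference of the actin control probe sets is larger where the amplified RNA is shorter. It was 1.85 to 2.90 in ISP8 cells and 2.50 to 3.11 in DN3 cells on the log2 scale. Subset and array number, 1 to 8 for ISP8 and 9 to 16 for DN3, cannot be told apart, and in sorted bulk cells neither can fewer expressing cells and less RNA per cell.

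Between the DN3 and the ISP8 stage the G1 module changed its composition in both genotypes. Transcripts of cyclin D2 and of Cdk6 were lower in ISP8 cells, and those of cyclin D3, both E-type cyclins, Cdk2 and the inhibitor Cdkn2c were higher, while Cdk4 differed little and Ccnd1 did not pass. In PKBalpha-/- mice 19 of the 24 probe sets tested passed an adjusted p of 0.05, 9 higher and 10 lower in ISP8 cells, where 28.1% of all probe sets tested passed, 11.9% higher and 16.2% lower. In PKBalpha+/+ mice 19 of 25 passed, again 9 higher and 10 lower, beside 28.9% of all probe sets, 11.6% higher and 17.3% lower. Over all probe sets the split of these calls depended on the scaling: 42.5% of calls in PKBalpha-/- and 40.2% in PKBalpha+/+ mice were higher in ISP8 cells, against 56.4% and 57.5% after centring arrays on their medians and 50.3% and 50.0% after quantile normalization. The same 17 probe sets of 8 genes passed in both genotypes with the same direction, 8 higher and 9 lower. Values of ISP8 and DN3 cells did not overlap for 19 of 24 probe sets in PKBalpha-/- mice (26.9% of all probe sets) and for 19 of 25 in PKBalpha+/+ mice (26.7%). By the selection of the study's methods, a paired test with a fold of 1.5 in 3 of 4 mice, 18 of 24 were taken in PKBalpha-/- mice (17.4% of all) and 17 of 25 in PKBalpha+/+ mice (19.2%). The methods also judged genes as detected by a detection P, which was not applied here or in later uses of this selection. The test was limma on log2 values with the mouse as a block, with the Benjamini-Hochberg adjustment over all probe sets tested. Where a gene is given 1 value, it is that of its probe set with the highest mean.

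**Figure D1:**
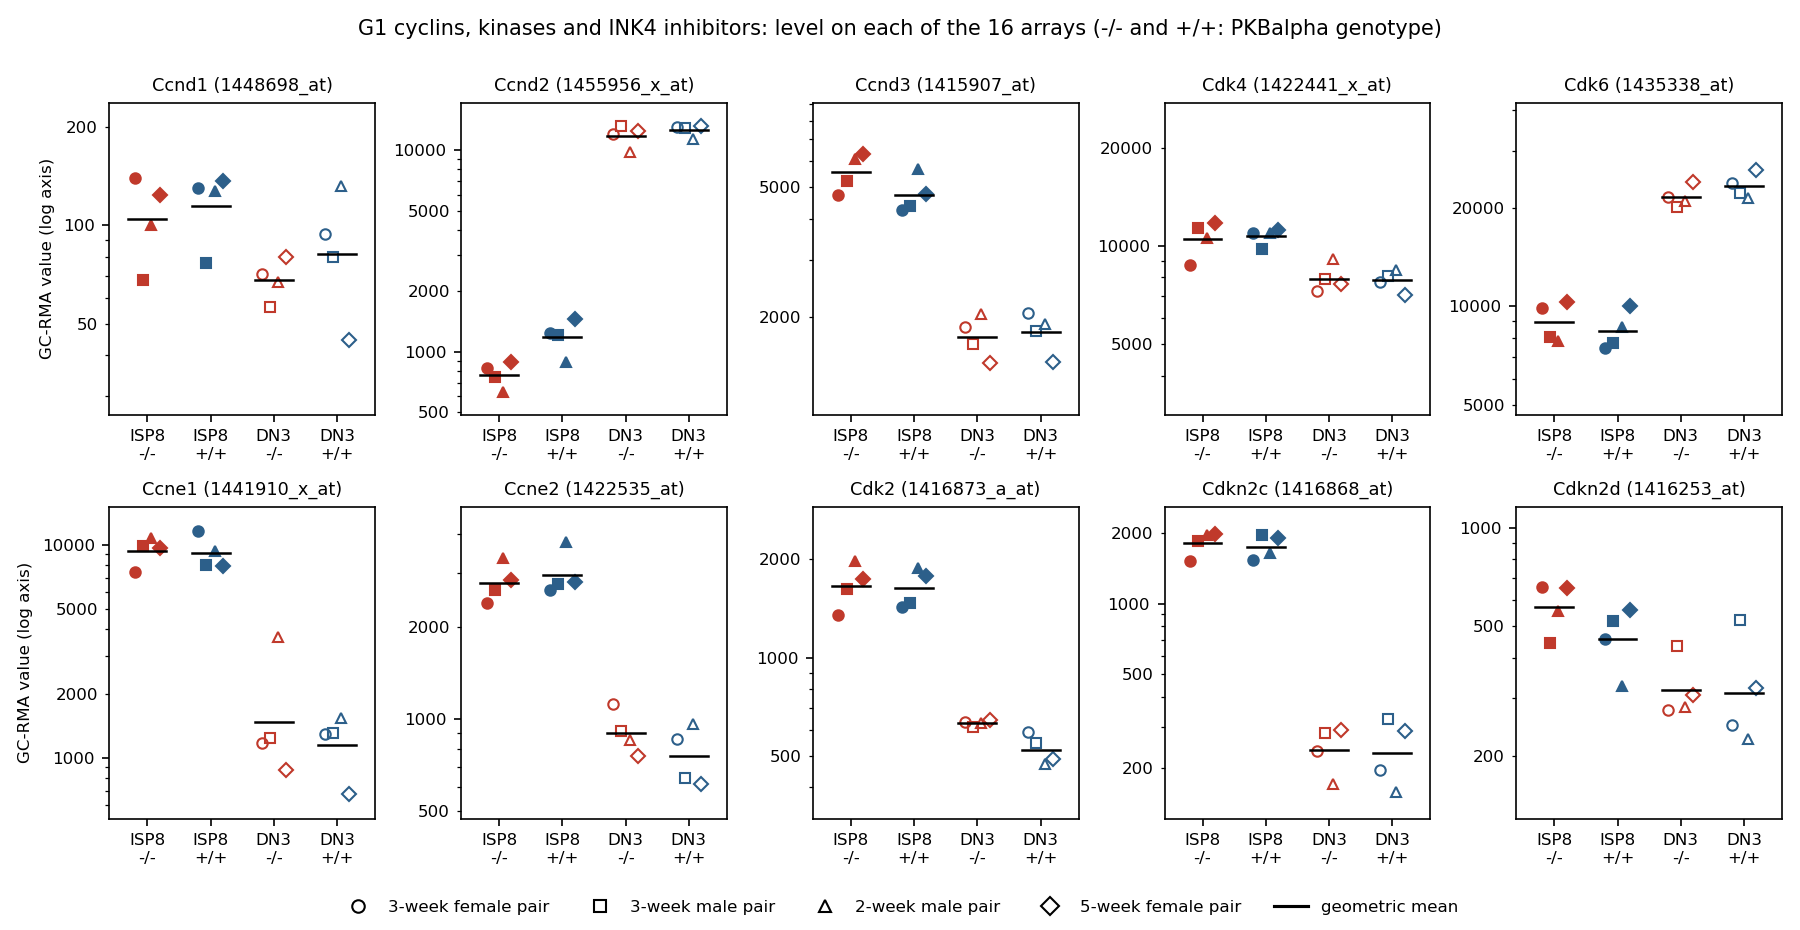
GC-RMA value (log axis) of the probe set with the highest mean for each of the 10 genes on all 16 arrays, with ISP8 cells (filled) left of DN3 cells (open) and PKBalpha-/- (red) left of PKBalpha+/+ (blue). Each symbol is 1 mouse, its shape the littermate pair, and the line is the geometric mean of 4 arrays. Ccnd2 and Cdk6 are lower in ISP8 cells, Ccnd3, Ccne1, Ccne2, Cdk2 and Cdkn2c are higher, and Ccnd1 overlaps.

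Ccnd2 showed the largest change of the 10 genes. Its probe set 1455956_x_at read 825, 746, 633 and 889.5 in ISP8 cells of PKBalpha-/- mice, against 11958, 13121, 9730 and 12434 in their DN3 cells. In PKBalpha+/+ mice it read 1235, 1209, 884 and 1443 in ISP8 cells, against 12917, 12867, 11310 and 13104 in DN3 cells. The subsets lay far apart in every mouse: the level was 15.3-fold lower in ISP8 cells without PKBalpha (log2 change -3.94, SE 0.09, limma adjusted p = 5.4e-12) and 10.7-fold lower in ISP8 cells with it (log2 change -3.41, SE 0.10, limma adjusted p = 3.5e-10). All 7 Ccnd2 probe sets fell in 4 of 4 mice of each genotype, 10.1- to 16.3-fold in PKBalpha-/- and 7.83- to 13.1-fold in PKBalpha+/+ mice. They read the same transcript and are not replicates of each other, and probe sets whose names end in _x_at or _s_at can also bind related sequences.

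Ccnd3, the cyclin on which dividing thymocytes depend after beta-selection, moved the other way. Probe set 1415907_at gave 4739, 5238, 6097 and 6310 in ISP8 cells and 1861, 1651, 2049 and 1442 in DN3 cells of PKBalpha-/- mice. It gave 4270, 4390, 5685 and 4757 in ISP8 cells and 2057, 1815, 1907 and 1459 in DN3 cells of PKBalpha+/+ mice. ISP8 values were above all DN3 values in both genotypes, by 3.20-fold (log2 change 1.68, SE 0.11) without and 2.64-fold (1.40, SE 0.12) with PKBalpha. Probe set 1444323_at also rose, by 1.53 and 1.05 on the log2 scale in PKBalpha-/- and PKBalpha+/+ mice, although in PKBalpha+/+ mice its adjusted p of 0.0115 became 0.0519 without the 5-week female (range over alternatives 0.00281 to 0.0519). The Ccnd3 probe sets did not agree, and their mean log2 change was 0.95 in PKBalpha-/- and 0.47 in PKBalpha+/+ mice. Probe set 1438805_at was lower in ISP8 cells of 4 of 4 mice of each genotype, with a log2 change of -0.37 (SE 0.15, limma adjusted p = 0.0863) in PKBalpha-/- mice, which did not pass, and of -1.05 (SE 0.20, limma adjusted p = 0.00106) in PKBalpha+/+ mice, which did. Which part of the transcript each probe set reads was not examined.

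Ccnd1, the D-type cyclin of many epithelial and mesenchymal cells, did not differ past the threshold. Its brightest probe set, 1448698_at, ranged over 68.0 to 139.9 in ISP8 PKBalpha-/-, 76.5 to 137 in ISP8 PKBalpha+/+, 56.1 to 79.9 in DN3 PKBalpha-/- and 44.5 to 132 in DN3 PKBalpha+/+ cells. Its ISP8 values were all above the medians of the ISP8 arrays given above, and its DN3 values lay on both sides of those of the DN3 arrays. The groups overlapped, and log2 changes between ISP8 and DN3 cells of 0.62 (95% interval -0.04 to 1.27) in PKBalpha-/- and 0.49 (-0.26 to 1.25) in PKBalpha+/+ mice did not pass. In PKBalpha-/- mice 1448698_at was nevertheless higher in ISP8 cells of 4 of 4 mice and was taken by the study's selection. The other Ccnd1 probe sets scattered around 20, the filter value that a probe set had to exceed to be tested, and 1417419_at passed that filter in only 1 of the 5 comparisons. Dim 1417420_at did not overlap in PKBalpha-/- mice, with 33.4 to 45.5 in ISP8 and 8.27 to 27.1 in DN3 cells, and did not pass.

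The kinases that pair with D-type cyclins differed from each other in direction. Cdk6 (1435338_at), without which mice have a small thymus, read 9896, 8071, 7819 and 10286 in ISP8 cells and 21606, 20234, 21001 and 24075 in DN3 cells of PKBalpha-/- mice. It read 7479, 7715, 8675 and 10057 in ISP8 cells and 23975, 22231, 21504 and 26177 in DN3 cells of PKBalpha+/+ mice. No ISP8 value reached a DN3 value, and the level was 2.42-fold lower (log2 change -1.28, SE 0.07, limma adjusted p = 6.6e-09) in PKBalpha-/- and 2.78-fold lower (-1.47, SE 0.08, limma adjusted p = 2.9e-08) in PKBalpha+/+ mice. Probe set 1455287_at fell by 0.97 and 0.85 on the log2 scale in PKBalpha-/- and PKBalpha+/+ mice. The dim 1460291_at gave -1.04 (limma adjusted p = 0.0296) in PKBalpha-/- mice, a call that was lost without the 3-week female (limma adjusted p = 0.114) or the 2-week male (0.0832; range over alternatives 0.0197 to 0.114), and -0.89 in PKBalpha+/+ mice, which did not pass.

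Cdk4 was the most even of the G1 kinases. In PKBalpha-/- mice 1422441_x_at read 8703, 11301, 10566 and 11735 in ISP8 cells and 7248, 7890, 9078 and 7628 in DN3 cells. In PKBalpha+/+ mice it read 10976, 9741, 10961 and 11179 in ISP8 cells and 7771, 8077, 8454 and 7088 in DN3 cells. The ranges overlapped in PKBalpha-/- mice through the ISP8 value of the 3-week female, and did not overlap in PKBalpha+/+ mice. The level was 1.32-fold higher in ISP8 PKBalpha-/- cells (log2 change 0.41, SE 0.08, limma adjusted p = 0.00124) and 1.37-fold higher in ISP8 PKBalpha+/+ cells (0.45, SE 0.08, limma adjusted p = 0.00114) than in DN3 cells. Of the other Cdk4 probe sets, 1422440_at passed in PKBalpha+/+ mice with 0.52 and not in PKBalpha-/- mice with 0.23, and 1422439_a_at passed in neither.

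The cyclin E and CDK2 genes, which act late in G1, all rose. Ccne1 (1441910_x_at) read 7439, 9805, 10752 and 9615 in ISP8 cells, against 1167, 1233, 3700 and 871 in DN3 cells of PKBalpha-/- mice. In PKBalpha+/+ mice it read 11536, 8013, 9358 and 7914 in ISP8 cells, against 1290, 1313, 1531 and 674 in DN3 cells. The DN3 value of the 2-week PKBalpha-/- male stood above those of the other DN3 cells, yet below every ISP8 value. The rise was 6.35-fold (log2 change 2.67, SE 0.21, limma adjusted p = 3.2e-07) without and 7.91-fold (2.98, SE 0.14, limma adjusted p = 1.0e-08) with PKBalpha. The dimmer probe set 1416492_at rose by 2.07 and 2.04 in PKBalpha-/- and PKBalpha+/+ mice, and there the 2-week PKBalpha-/- male, at 203 in DN3 cells, lay between the other DN3 values.

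Ccne2 (1422535_at), the second E-type cyclin, averaged 2805 ± 407 in ISP8 and 912 ± 154 in DN3 cells of PKBalpha-/- mice (SD, n = 4 each). It averaged 2990 ± 530.1 in ISP8 and 771 ± 168 in DN3 cells of PKBalpha+/+ mice (SD, n = 4 each). The subsets were separate in both genotypes, with log2 changes of 1.62 (SE 0.14) and 1.97 (SE 0.13) in PKBalpha-/- and PKBalpha+/+ mice. Cdk2 (1416873_a_at), the kinase partner of both, read 1348, 1626, 1975 and 1744 in ISP8 and 635, 612, 629 and 645 in DN3 cells of PKBalpha-/- mice. It read 1425, 1467, 1885 and 1784 in ISP8 and 589.9, 546, 471 and 491 in DN3 cells of PKBalpha+/+ mice. Every ISP8 value was above every DN3 value, with log2 changes of 1.40 (SE 0.13, limma adjusted p = 1.4e-06) and 1.64 (SE 0.15, limma adjusted p = 3.3e-06) in PKBalpha-/- and PKBalpha+/+ mice. The other Cdk2 probe set, 1447617_at, never passed 20 and was not tested.

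The INK4 inhibitor Cdkn2c (p18INK4c), whose loss in mice leads to thymic overgrowth, rose alongside the cyclins. Probe set 1416868_at read 1518, 1852, 1956 and 1979 in ISP8 cells and 236, 282, 171 and 290.2 in DN3 cells of PKBalpha-/- mice. It read 1525, 1951, 1637 and 1906 in ISP8 cells and 195, 322, 159 and 287 in DN3 cells of PKBalpha+/+ mice. Subsets did not overlap, and the rise was nearly the same size in both genotypes, 7.58-fold (log2 change 2.92, SE 0.16, limma adjusted p = 1.3e-08) without and 7.54-fold (2.91, SE 0.16, limma adjusted p = 4.1e-08) with PKBalpha. Cdkn2c and cyclin D2, which act on the same kinases, thus moved in opposite directions in every mouse.

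Cdkn2d (p19INK4d), a related inhibitor, changed less. In PKBalpha-/- mice 1416253_at read 659, 444, 557 and 655 in ISP8 and 276, 435, 282 and 307 in DN3 cells. In PKBalpha+/+ mice it read 455, 517, 326 and 558 in ISP8 and 248, 523, 226 and 324 in DN3 cells. The values were separate by subset in PKBalpha-/- mice and overlapped in PKBalpha+/+ mice. The log2 change was 0.84 (SE 0.20, limma adjusted p = 0.0052) without PKBalpha, which passed, and 0.54 (SE 0.19, limma adjusted p = 0.0513) with it, which did not, and their difference of 0.30 (95% interval -0.32 to 0.92) did not pass either. The 3-week male pair showed almost no difference between subsets in either mouse, 0.03 in PKBalpha-/- and -0.02 in PKBalpha+/+ on the log2 scale, and without this pair the PKBalpha+/+ change was 0.73 with an adjusted p of 0.0127 (range over alternatives 0.00853 to 0.192).

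**Figure D2:**
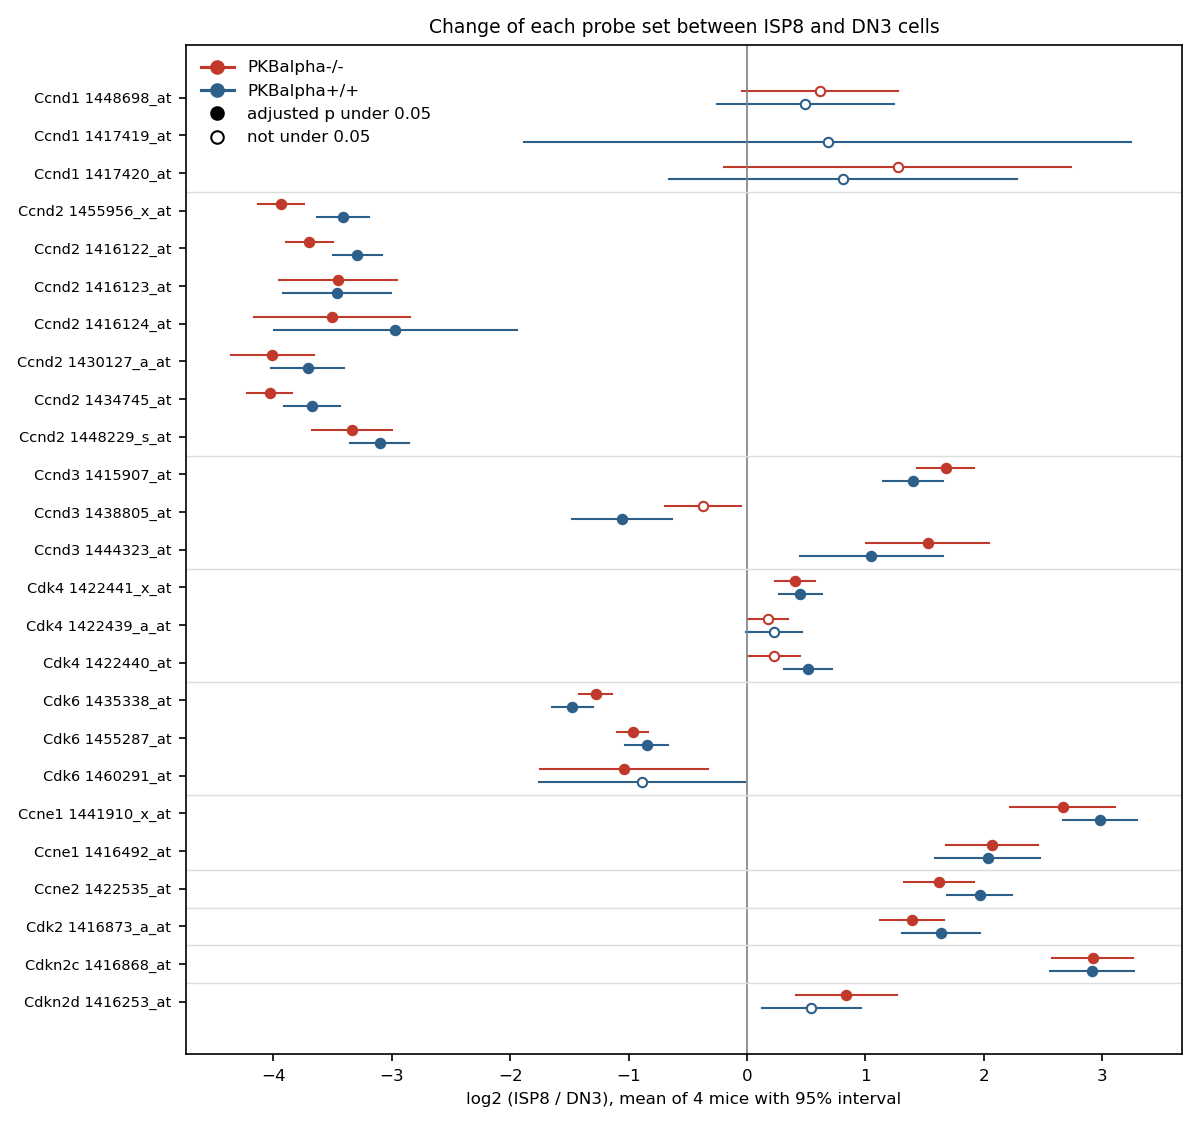
Log2 ratio of ISP8 to DN3 cells for each member probe set tested, in PKBalpha-/- (red) and PKBalpha+/+ (blue) mice, as the limma estimate over 4 mice with its 95% interval. Filled circles have an adjusted p under 0.05: all 7 Ccnd2 probe sets lie between -4.03 and -2.97, and 1 of the 3 Ccnd3 probe sets lies left of 0.

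Promoter sequences are shown for Ccne1, Cdk2 and Cdkn2c. These are the members of the late G1 and inhibitor groups that were higher in ISP8 cells by over 1 on the log2 scale in both genotypes and have a window in the RefSeq table. They were searched for E2F motifs because E2F factors act next in the pathway, and Ccne1 is a known E2F target gene. Of the 10 genes 7 had a window there, with 9 windows in all. Cdkn2c had more than 1 window, and the stretch of only 1 is shown. Each line gives the 150 bases before the annotated start in GRCm38.p6, 5′ to 3′ on the strand of the gene, and capitals mark a match to an E2F motif.
Ccne1, chr7:38107491-38107640, minus strand: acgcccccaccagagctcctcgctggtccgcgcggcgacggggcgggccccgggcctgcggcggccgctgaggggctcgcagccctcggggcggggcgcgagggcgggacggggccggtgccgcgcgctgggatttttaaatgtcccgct
Cdk2, chr10:128705052-128705201, minus strand: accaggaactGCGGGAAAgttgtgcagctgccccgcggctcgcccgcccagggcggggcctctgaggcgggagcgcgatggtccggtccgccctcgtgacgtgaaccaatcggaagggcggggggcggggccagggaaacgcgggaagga
Cdkn2c, chr4:109666757-109666906, minus strand: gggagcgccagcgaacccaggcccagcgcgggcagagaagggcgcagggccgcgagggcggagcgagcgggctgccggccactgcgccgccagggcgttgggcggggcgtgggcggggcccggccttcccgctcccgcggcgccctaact
The motifs searched were TTTGGCGC, TTTCCCGC, TTTGCCGC and TTTCGCGC on both strands, in the 250 bases before the start. Cdk2 held 1 match, GCGGGAAA on the strand of the gene (TTTCCCGC on the opposite strand), which began 140 bases before the start, and 1.86% of all 32851 windows held a match. The other 8 windows of the 10 genes had none of these letters, and none of the 9 held the FOXO motif TTGTTTAC on either strand, which 1.07% of all windows held. A match in the letters is a description and does not show that a factor binds there.

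Other genes of the same pathway were read from lists of RB and E2F factors, other CDK inhibitors, regulators of CDK activation and cyclin turnover, S and M phase cyclins, and E2F targets. Over all probe sets 11.9% were higher and 16.2% lower in ISP8 cells of PKBalpha-/- mice, and 11.6% and 17.3% in those of PKBalpha+/+ mice. Of 13 RB and E2F genes 9 were higher and 1 lower in ISP8 cells in each genotype, among them Rb1 (1.74 and 1.65 on the log2 scale in PKBalpha-/- and PKBalpha+/+ mice), the target of the G1 kinases, and the S phase factors E2f2 (1.98 and 1.86) and E2f8 (2.46 and 2.88). The gene that fell was Tfdp2, a dimerisation partner of E2F (-0.74 and -0.67). All 7 measured S and M phase genes and 15 of 16 E2F targets rose in both genotypes, such as Ccna2, the S phase partner of CDK2 (1.96 and 1.99), and Rrm2, a ribonucleotide reductase subunit (1.48 and 1.71). Of 15 genes for CDK activation and cyclin turnover 6 rose in each genotype, led by Skp2 (1.08 and 1.23), which targets CDK inhibitors for degradation, and Cks1b (0.67 and 0.84), its cofactor. None of them fell in PKBalpha-/- mice, and Fbxw7 and Fbxo31, ubiquitin ligase subunits that target cyclins E and D1, fell in PKBalpha+/+ mice.

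The CIP/KIP inhibitors, which act on CDK2 complexes, moved in both directions. Cdkn1a (p21) was lower in ISP8 cells, with log2 changes of -5.86 (limma adjusted p = 3.9e-06) in PKBalpha-/- and -3.60 (limma adjusted p = 1.1e-08) in PKBalpha+/+ mice. Its values in ISP8 PKBalpha-/- cells were 53.9, 17.5, 87.3 and 3.87, in part under the filter of 20, so the size of the first change is poorly determined. Cdkn1c (p57) was higher, by 1.79 and 1.93. Cdkn1b (p27) did not pass, with 0.03 and -0.16, and of the INK4 genes outside the 10, Cdkn2a did not pass in either genotype and Cdkn2b did not reach the filter. Between genotypes none of the genes on these 5 lists, each read by its probe set with the highest mean alone, passed in ISP8 or in DN3 cells. Over all probe sets 0.0147% passed in ISP8 and 0.0383% in DN3 cells.

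The question the study put to its littermate pairs was what the loss of PKBalpha changes in each subset. In ISP8 cells no member probe set passed, 0 of 24, beside 0.0147% of all probe sets, and 9 of 24 had an unadjusted p under 0.05, 6 lower and 3 higher in PKBalpha-/- cells, where 6.08% of all probe sets had one. These 9 were 5 of 7 Ccnd2 and 3 of 3 Ccnd3 probe sets and 1 of Cdk6. Probe sets of 1 gene were read on the same arrays and are not independent of each other. The study's full selection was not reproduced, as the detection P of the methods was not applied. With its other criteria applied to the deposited values, 0 of 24 were taken, where 1.53% of all probe sets were. Ccnd2 1455956_x_at missed narrowly: its pair differences were -0.582, -0.697, -0.481 and -0.698 on the log2 scale, and the first fell just short of 1.5-fold. The 3′ minus 5′ actin difference was larger, with less 5′ signal, in ISP8 cells of the PKBalpha-/- mouse in 4 of 4 pairs, by 0.06 to 0.44 on the log2 scale. Its part in the differences below was not tested.

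Of the 7 Ccnd2 probe sets, 4 were lower in PKBalpha-/- than in PKBalpha+/+ ISP8 cells in every pair, and none passed the threshold. Probe set 1455956_x_at read 825, 746, 633 and 889.5 in PKBalpha-/- and 1235, 1209, 884 and 1443 in PKBalpha+/+ cells. Each PKBalpha-/- mouse was below its littermate, by -0.58, -0.70, -0.48 and -0.70 on the log2 scale, although the groups overlapped through the 2-week PKBalpha+/+ male. The level was 1.53-fold lower (-0.61, SE 0.11, 95% interval -0.86 to -0.37, limma adjusted p = 0.242). Probe set 1416122_at read 574, 683, 622 and 601 in PKBalpha-/- and 873, 1029, 807 and 894 in PKBalpha+/+ cells, and here no value overlapped (-0.54, SE 0.12, limma adjusted p = 0.45).

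Probe set 1434745_at was separate as well, with 568 to 649 in PKBalpha-/- against 728 to 938 in PKBalpha+/+ cells (-0.49, limma adjusted p = 0.617). These were the 2 of 24 member probe sets without overlap, beside 2.91% of all. Probe sets 1430127_a_at (-0.57) and 1448229_s_at (-0.48) were lower in 4 and 3 of 4 pairs, and the remaining Ccnd2 probe sets, 1416123_at (-0.08) and 1416124_at (-0.22), which were dim in ISP8 cells, had 95% intervals of -0.92 to 0.76 and -1.63 to 1.19. The call depended on the fit: when the spread was estimated over all 16 arrays at once, 1455956_x_at (limma adjusted p = 0.0073) and 1416122_at (limma adjusted p = 0.0135) passed. These 2 probe sets, which are of 1 gene, were among the 7 that passed in that fit, out of all 34016 probe sets tested. That fit gave each littermate pair 1 effect for both subsets, and its correlation within a mouse was -0.07. Over the other alternatives neither Ccnd2 probe set passed, and their highest adjusted p was 0.952.

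Cyclin D3 transcripts lay on the other side. In ISP8 cells 1415907_at read 4739, 5238, 6097 and 6310 in PKBalpha-/- and 4270, 4390, 5685 and 4757 in PKBalpha+/+ cells, higher in 4 of 4 pairs with overlapping groups. Its log2 difference was 0.23 (SE 0.08, limma adjusted p = 0.78). Probe sets 1444323_at (0.56, 4 of 4 pairs, limma adjusted p = 0.764) and 1438805_at (0.45, 3 of 4 pairs, limma adjusted p = 0.803) pointed the same way, including the probe set that differed from the others between subsets. None of the 3 passed in any alternative that was run.

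**Figure D3:**
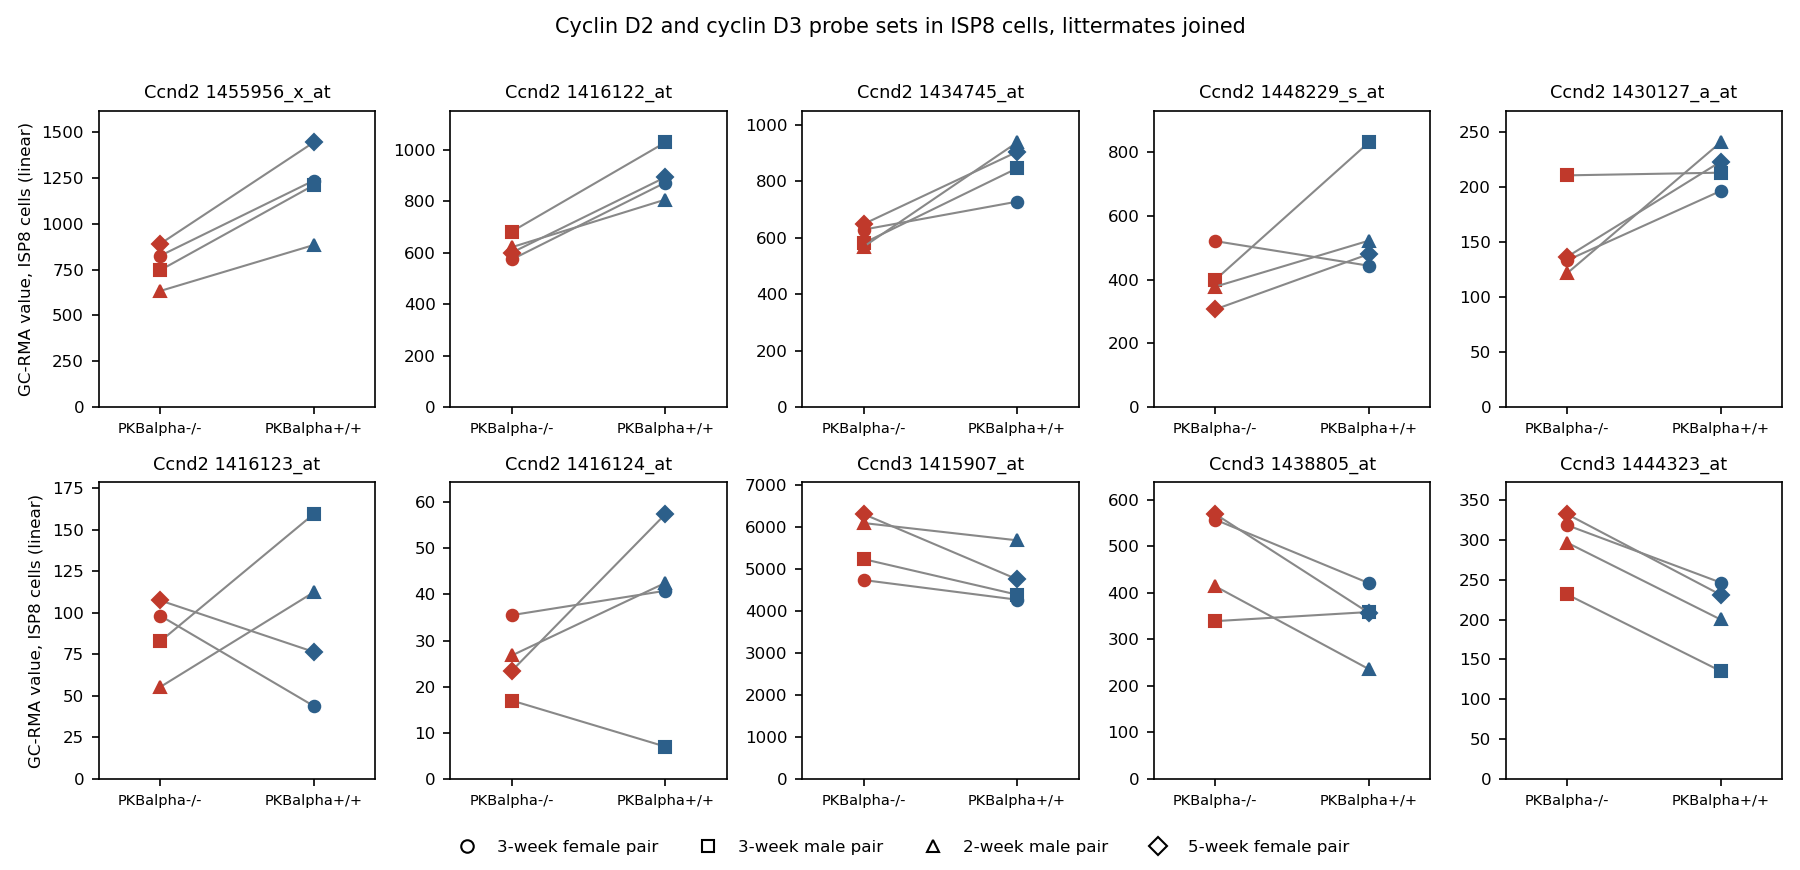
GC-RMA value (linear axis from 0) of the 7 Ccnd2 and 3 Ccnd3 probe sets in ISP8 cells, PKBalpha-/- left and PKBalpha+/+ right, with littermates joined and the pair given by the symbol. The lines of Ccnd2 1455956_x_at, 1416122_at, 1434745_at and 1430127_a_at run upward to PKBalpha+/+ in 4 of 4 pairs, those of Ccnd3 1415907_at and 1444323_at run downward in 4 of 4, and the 2 dim Ccnd2 probe sets, 1416123_at and 1416124_at, have no common direction.

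Among the other members in ISP8 cells, 1 had an interval that left out 0. Cdk6 1455287_at, this probe set, was lower by 0.17 (95% interval -0.32 to -0.02, limma adjusted p = 0.803), while 1435338_at of the same gene gave 0.09 (-0.09 to 0.27). Intervals of the log2 difference were -0.23 to 0.30 for Ccne1, -0.27 to 0.09 for Ccne2, -0.18 to 0.24 for Cdk2 and -0.20 to 0.15 for Cdk4. They were -0.15 to 0.27 for Cdkn2c, -0.04 to 0.69 for Cdkn2d and -0.69 to 0.42 for Ccnd1.

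In DN3 cells no member probe set passed either, 0 of 24, beside 0.0383% of all probe sets, and 0 of 24 were taken by the selection of the methods, beside 1.35% of all. Here 2 of 24 had an unadjusted p under 0.05, where 4.83% of all probe sets had one, and both were Ccnd2 probe sets, lower in PKBalpha-/- cells. They were 1430127_a_at, with 2301, 2287, 2265 and 2619 in PKBalpha-/- and 2677, 3183, 2526 and 3060 in PKBalpha+/+ cells (-0.27, SE 0.09, limma adjusted p = 0.972), and 1448229_s_at (-0.25, SE 0.09, limma adjusted p = 0.972). The brightest Ccnd2 probe set, 1455956_x_at, gave -0.09 (95% interval -0.23 to 0.04), and over the 7 probe sets the difference ranged from -0.27 to 0.32.

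Cdk2 was the only member whose genotypes did not overlap in DN3 cells, 1 of 24 beside 1.74% of all probe sets. It read 635, 612, 629 and 645 in PKBalpha-/- and 589.9, 546, 471 and 491 in PKBalpha+/+ DN3 cells, higher in 4 of 4 pairs, and the log2 difference of 0.27 (SE 0.14, limma adjusted p = 0.972) did not pass. Ccne1 (0.35, SE 0.17) and Ccne2 (0.25, SE 0.13) also lay above 0 without passing. The Ccne1 differences of the 4 pairs were -0.14, -0.09, 1.27 and 0.37, so that the 2-week male pair stood apart. Cdk6, Cdk4, Ccnd3, Cdkn2c and Cdkn2d differed by -0.11, 0.02, -0.05, 0.05 and 0.03.

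**Figure D4:**
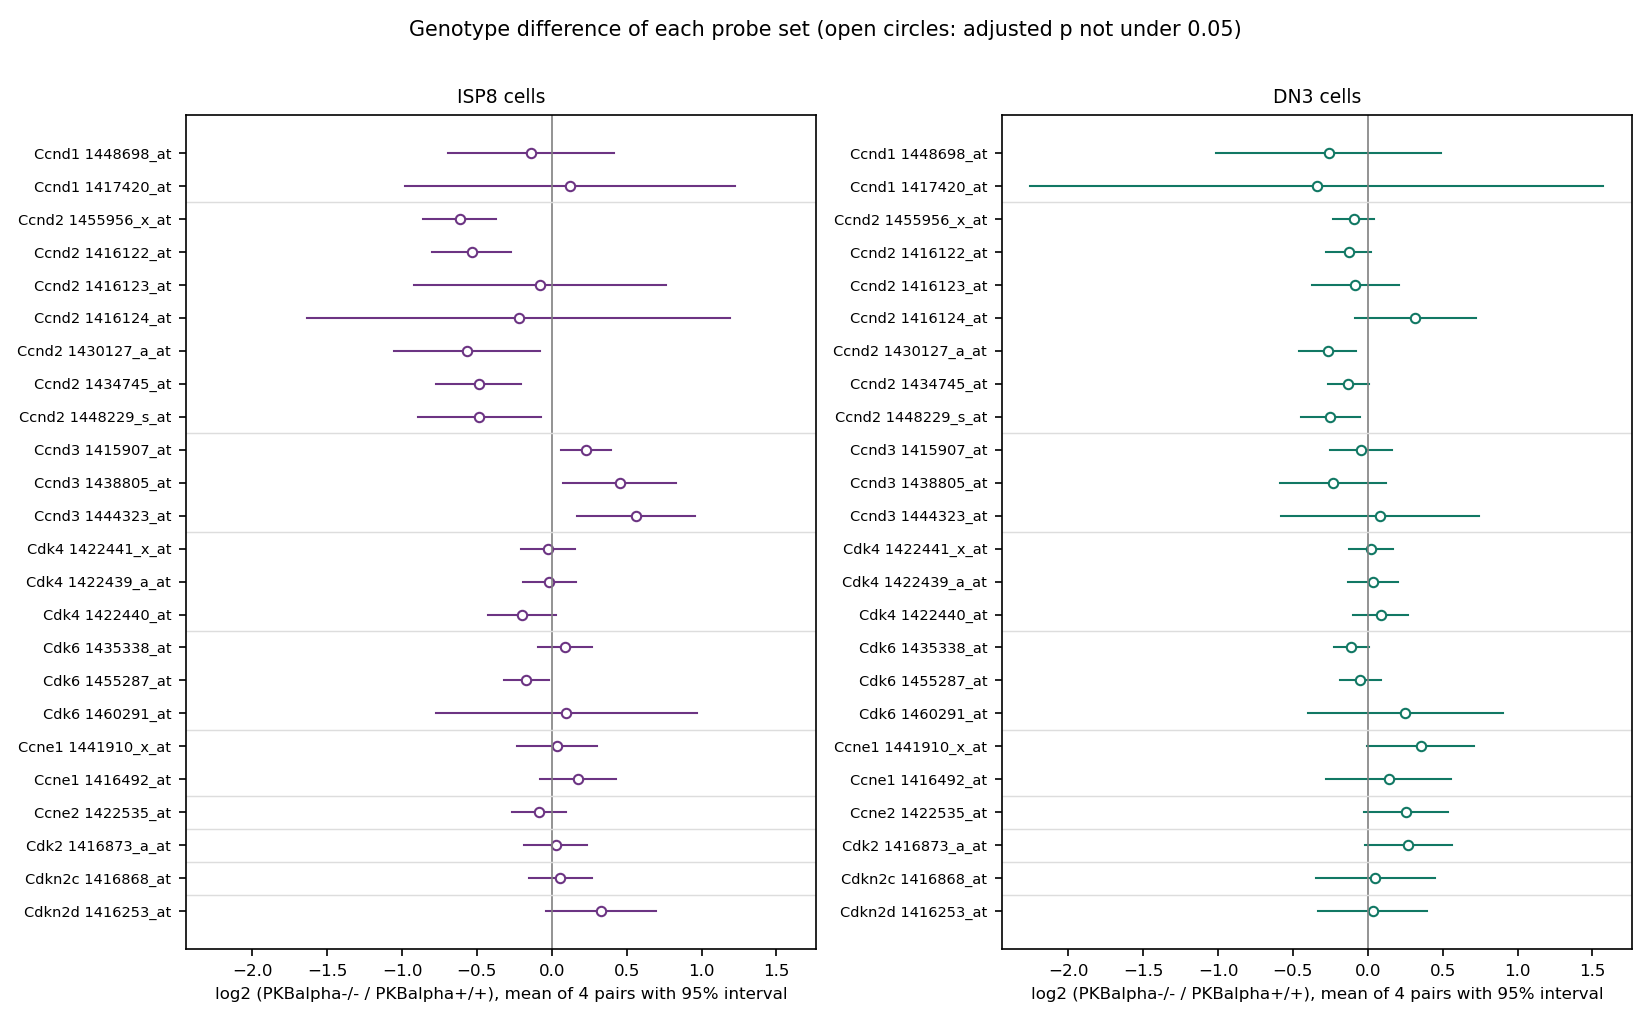
Log2 ratio of PKBalpha-/- to PKBalpha+/+ cells for the 24 member probe sets tested in ISP8 (left) and DN3 cells (right), as the limma estimate over 4 littermate pairs with its 95% interval. All circles are open because no adjusted p is under 0.05. In ISP8 cells 5 Ccnd2 intervals lie below 0 and 3 Ccnd3 intervals above it, and in DN3 cells 2 Ccnd2 intervals lie below 0.

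Whether the genotype effect differed between the subsets was tested over all 16 arrays with the mouse as a block, which is the same as asking whether the change between DN3 and ISP8 cells differed between the genotypes. No member passed, 0 of 24, and neither did any of the 36835 probe sets tested (0%), of which 1750 had an unadjusted p under 0.05. Among members 4 of 24 had one, Ccnd2 1455956_x_at (-0.52, SE 0.13, limma adjusted p = 0.961), 1416122_at (-0.41) and 1434745_at (-0.36), which were lower in ISP8 cells by more without PKBalpha in 4 of 4 pairs, and Ccnd3 1438805_at (0.68, SE 0.25), which was lower by less. The stage changes given above for both genotypes are thus not shown to differ for any member.

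Across the 4 groups, the 10 genes fell into a small number of orders. Ccnd2 averaged 773 ± 110.4 in ISP8 PKBalpha-/- and 1193 ± 231 in ISP8 PKBalpha+/+ cells, below 11810 ± 1467 in DN3 PKBalpha-/- and 12549 ± 833 in DN3 PKBalpha+/+ cells (SD, n = 4 each). Cdk6 had both ISP8 groups below both DN3 groups too, and Ccnd3, Ccne1, Ccne2, Cdk2, Cdk4, Cdkn2c and Cdkn2d had both ISP8 means above both DN3 means. In all of these genes the neighbours of 1 subset, PKBalpha-/- and PKBalpha+/+, did not differ beyond the threshold, and only the step between subsets did, which for Cdkn2d held in PKBalpha-/- mice alone. For Ccnd1 no neighbours differed beyond the threshold.

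Markers of other cells moved with subset, and their part in the subset changes was not tested, nor was that of RNA length. The 3′ minus 5′ actin difference was smaller, with more 5′ signal, in ISP8 than in DN3 cells of 3 of 4 PKBalpha-/- and 4 of 4 PKBalpha+/+ mice. The summed value of 5 markers of NK, innate and gamma-delta cells was 416 to 887 in ISP8 and 2353 to 6463 in DN3 cells, with 3 of the 5 lower in ISP8 cells of both genotypes. That of 5 B cell markers was 274 to 566 in ISP8 and 1101 to 1315 in DN3 cells, most of it from Cd79b, the only B cell marker that was lower, while Ms4a1 was higher in ISP8 PKBalpha+/+ cells (2.48 on the log2 scale, and 1.28 in PKBalpha-/- cells, which did not pass). Sums of 11 epithelial and stromal markers were 345 to 654 in ISP8 and 1496 to 1894 in DN3 cells, with 2 of the 11 lower in ISP8 cells of each genotype. The brightest was Cdh1, with a highest group mean of 699. The median log2 change of those tested was only -0.11 in PKBalpha-/- and -0.03 in PKBalpha+/+ mice. Sums of 8 myeloid and dendritic markers overlapped, with 548 to 1377 in ISP8 and 832 to 1565 in DN3 cells. Single myeloid markers passed in both directions, 1 higher and 2 lower in ISP8 cells of PKBalpha-/- mice and 2 higher and 3 lower in those of PKBalpha+/+ mice. Of the defining markers, Zbtb16 of innate T cells and Ebf1 of B cells were near the filter of 20, with group means of 15.1 to 19.2 and 10.7 to 20.6, and Cd163l1 and Cd79b were not, with 332 to 2439 and 257 to 1177. The 3 erythroid markers summed to 47.8 to 157 over the 16 arrays. Between genotypes 1 marker of these lists passed, Cd163l1 of gamma-delta cells, higher in DN3 PKBalpha-/- cells by 1.29 on the log2 scale (limma adjusted p = 5.4e-04).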

How the data were processed

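Total RNA of sorted thymocytes was amplified in 2 cycles, labelled from the 3′ end and hybridised to 16 Affymetrix whole-genome mouse arrays, 1 for each subset of 8 mice. The authors summarised and normalised the probe sets by GC-RMA in Refiner, and the deposited values are intensities on a linear scale. Here, the deposited intensities were taken to log2. A probe set was tested where it exceeded 20 on at least 1 of both arrays in 3 of 4 pairs or mice. Log2 values were fitted with limma 3.58.1 (R 4.3.3), with the variance trend, the littermate pair or the mouse as a block, and the Benjamini-Hochberg adjustment over all probe sets tested, at 0.05. Littermates deviated together from their group means: in ISP8 cells their deviations correlated at 0.0706 to 0.178, and those of mice from different pairs at -0.170 to 0.0540. In DN3 cells the same values were 0.316 to 0.384 for littermates and -0.228 to 0.0714 for other mice. Taking deviations from group means of 4 arrays lowers the values of other mice where those of littermates are positive. Littermates also shared age, sex and neighbouring array numbers, and the source of their common deviation was not tested. The interaction was fitted on all 16 arrays.

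The platform annotation gave 1 symbol to 34958 probe sets, several to 932 and none to 9211, and only those with 1 symbol were named. For each gene the probe set with the highest mean stands for the gene. All other probe sets of the member genes were tested alike, while genes of the other lists were read by that 1 probe set alone. Members, lists and tests were chosen with earlier results of these data known. Alternatives were no filter or a filter at 100, a constant of 20 added, quantile normalization, median centring, no block, robust moderation, 1 fit of all arrays, leaving out each pair, the study's selection and the methods' paired test. The study's selection was applied without the detection P of the methods. Promoter windows were those of RefSeq for GRCm38.p6. The number of arrays limits the precision, and no depth applies. Scripts were tested on simulated data.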

Additional observations from a re-analysis of the deposited data

Results flagged for a closer look

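Among the highest-mean probe sets of the 10 genes, 40 groups of 4 arrays were examined for a sample far from the other 3, on the log2 scale. A gap of this size is expected by chance in about 1 of 20 groups, and 4 of 40 had one, all in PKBalpha+/+ mice. In ISP8 PKBalpha+/+ cells Ccnd1 read 76.5 in the 3-week male, below 127 to 137 in the others. In the same mouse Cdk4 read 9741 in ISP8 cells, below 10961 to 11179 in the others. Ccne2 read 3778 in ISP8 cells of the 2-week PKBalpha+/+ male, above 2635 to 2792 in the others. Ccnd2 read 11310 in DN3 cells of the same mouse, below 12867 to 13104 in the others. No member passed the test of a difference in genotype effect between the subsets. The part of single arrays in these values was not tested.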

How the results depend on the processing

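Over the 14 alternatives (12 for the interaction) the number of member probe sets past the threshold was 14 to 20 for ISP8 against DN3 in PKBalpha-/- mice, 15 to 21 in PKBalpha+/+ mice, and 0 for the genotypes in DN3 cells and for the interaction. Over all probe sets the same alternatives gave 3036 to 10041 calls in PKBalpha-/- and 3103 to 10646 in PKBalpha+/+ mice, the lowest by the methods' paired test after Benjamini-Hochberg. Between genotypes they gave 0 to 458 in DN3 cells, in place of 13, and 0 to 521 in ISP8 cells, in place of 5, the highest by the methods' selection, which adjusts no p. In ISP8 cells the number of members past the threshold was 0 between genotypes under all alternatives except the fit of all 16 arrays, in which 2 Ccnd2 probe sets passed. Leaving out each pair in turn gave 18 to 20 in PKBalpha-/- mice, 18 to 21 in PKBalpha+/+ mice and 0 for the other comparisons. Without the replicate block, that is the littermate or mouse pairing, the counts were 19, 19, 0, 0 and 0, so the pairing changed none of them, while over all probe sets the genotype calls without it were 1 in DN3 and 2 in ISP8 cells. Of the alternative values of the member probe sets with an unadjusted p under 0.05, 676 kept their direction and side of the threshold, 12 newly passed, 8 no longer passed and 0 changed direction. Among the other members the direction changed in 15 of 174 values between genotypes in ISP8 cells, 10 of 259 in DN3 cells, 18 of 239 in the interaction and 0 of 23 and 0 of 43 between subsets in PKBalpha-/- and PKBalpha+/+ mice. In PKBalpha+/+ mice Cdk4 1422439_a_at newly passed after median centring (limma adjusted p = 0.0228) and without the 3-week male (limma adjusted p = 0.0455). The 12 that newly passed were Ccnd2 1455956_x_at and 1416122_at between genotypes in ISP8 cells, in the fit of all 16 arrays, Cdkn2d in PKBalpha+/+ mice, whose limma adjusted p ranged from 0.00853 to 0.192, and the dimmer Cdk4 probe sets in PKBalpha-/- mice. Those lost were Cdk6 1460291_at in PKBalpha-/- mice, and Ccnd3 1444323_at and, after quantile normalization (0.25, limma adjusted p = 0.051, range over alternatives 0.000252 to 0.051), Cdk4 1422441_x_at in PKBalpha+/+ mice. Taking the mean of a gene's probe sets in place of the brightest gave Ccnd3 a change between subsets of 0.95 in place of 1.68 in PKBalpha-/- and 0.47 in place of 1.40 in PKBalpha+/+ mice, and changed the sign only for Cdk6, in DN3 cells (0.03 in place of -0.11) and in the interaction (-0.02 in place of 0.20), where neither passed. Dim probe sets, such as those of Ccnd1, carry little information at this signal.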

Other observations

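Cdkn1a (p21), a CDK inhibitor outside the 10 genes, was lower in PKBalpha-/- cells of 4 of 4 pairs in both subsets, and neither difference passed the test. In ISP8 cells it read 53.9, 17.5, 87.3 and 3.87 in PKBalpha-/- mice and 87.3, 227, 269 and 133 in PKBalpha+/+ mice, with a log2 difference of -2.78 (SE 0.59, limma adjusted p = 0.369). Of the PKBalpha-/- values 2 lay under the filter of 20, so the size of this difference on the log2 scale is poorly determined. In DN3 cells it averaged 1444 in PKBalpha-/- and 2025 in PKBalpha+/+ mice, with a log2 difference of -0.52 (SE 0.12, limma adjusted p = 0.253). The difference between both effects, -2.25 (SE 0.78), rests on the same values and did not pass either (limma adjusted p = 0.961). This gene was singled out after its values were seen.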
